A study of Mus musculus with 16 samples.

Results

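Between days 1 and 14 after anterior cruciate ligament reconstruction (ACLR) in mice, 443 of 11998 tested genes moved the same way in all 4 sorted myeloid populations of the tissue between bone and tendon graft. Of these, 323 were lower and 120 were higher on day 14. A gene was counted when it passed a test of day over all 16 libraries with population as a covariate, and when, in each population separately, both day 14 libraries lay below (or both above) both day 1 libraries. To pass meant a change of at least 1 log2 unit either way together with a p below 0.05 in the quasi-likelihood test of edgeR, after Benjamini-Hochberg adjustment over all tested genes. Among the genes that moved alike were those of inducible nitric oxide synthase, arginase 1, interleukin 1, neutrophil-attracting chemokines, hypoxia-responsive enzymes, endoplasmic reticulum chaperones and iron-binding proteins, all lower on day 14, and genes of core histones, higher on day 14.

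The cells came from 12-week-old male wild-type C57BL/6 mice that had all undergone ACLR surgery. Live, lineage-negative, CD45+ cells were sorted by flow cytometry into CD9+ macrophages (Ly6G- CD11b+ F4/80+ CD9+), CX3CR1+ macrophages (Ly6G- CD11b+ F4/80+ CX3CR1+ CD9-), F4/80- myeloid cells (Ly6G- CD11b+ F4/80-) and neutrophils (Ly6G+ Ly6C+). The few macrophages that carry both CD9 and CX3CR1 fall in the CD9+ gate. Each population had 2 libraries on each day, and the cells of several mice went into each sort, so a replicate is a pool of mice. The mice that the study reports are too few for a separate pool behind each library. Populations of a day therefore shared mice, and the libraries of a day are not all independent. No library of uninjured tissue was analysed here, and every comparison is therefore of the late with the early phase after the same operation. In sorted bulk RNA, fewer cells of a type within a gate and less RNA per cell cannot be told apart.

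An injured tendon-bone interface fills first with neutrophils and inflammatory macrophages, whose Toll-like receptor and cytokine signals activate NF-kB and with it chemokines and interleukin 1. Activated myeloid cells also switch on HIF-1 target genes, which bring in glucose and run glycolysis where oxygen is scarce, and secretory load in the endoplasmic reticulum (ER) turns on chaperones through the unfolded protein response. Heme set free from damaged tissue induces heme oxygenase and ferritin. These programmes are shared by macrophages, monocytes and neutrophils.

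Library totals ranged from 10587857 to 19814119 counts on day 1 and from 9233952 to 12721779 on day 14, and mitochondrial genes took 4.88% to 17.7% and 3.88% to 13.9% of the counts. Replicates correlated with Pearson's r, over genes on the log2 scale, of 0.954 (CD9+ macrophages on day 1) to 0.993. Levels are given as CPM, the counts of a gene scaled to library size with TMM factors, and are compared between samples rather than between genes. The sort genes followed the gates in part: Ly6g, which encodes the neutrophil antigen, reached 267 and 286 CPM in day 14 neutrophils and stayed at or below 10.1 CPM outside the neutrophil gate, Adgre1 (F4/80) was highest in both macrophage populations, and Cx3cr1 was highest in CX3CR1+ macrophages. Cd9 RNA was at 678 and 675 CPM in day 1 neutrophils, above the 149 and 149 CPM of day 1 CD9+ macrophages. Summed neutrophil markers (18 genes, none at 0) stood at 7226 to 24401 CPM in the CD9+ gate over both days, beside 856 to 1733 CPM in the CX3CR1+ gate. The population names are those of the gates, and the CD9+ gate also held eosinophil markers, given below. Day of harvest, sort and library preparation cannot be told apart from time after surgery.

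The shared change was mostly a fall. The additive test passed 802 genes, 538 lower (4.48% of the tested genes) and 264 higher (2.2%) on day 14. Of those, 323 lower (2.69% of the tested genes) and 120 higher (1%) were also separated in every population. By separation alone, whatever the test, 773 genes (6.44%) were lower and 615 (5.13%) higher in all 4 populations. When each population was tested separately, 3.48% of the tested genes passed lower in CD9+ macrophages, 3.47% in CX3CR1+ macrophages, 2.24% in F4/80- cells and 10.9% in neutrophils, and 4.75%, 2.39%, 1.01% and 3.15% passed higher. Counting shared passes, 92 genes (0.767%) passed lower and 11 (0.0917%) passed higher in all 4 of them, and all of them were among the 443. The median log2 fold change was -1.75 over the 323 lower genes and 1.29 over the 120 higher genes. Both are beyond 1 log2 unit by the rule that chose the genes. Over all tested genes the median was -0.00029.

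Among the 323 lower genes the fall was deepest in neutrophils. These genes were chosen by a change over all libraries, those of neutrophils included. Genes that fell mainly in neutrophils could therefore enter the set, and the ranking of populations describes the set and is no separate test. The median log2 fold change of the 323 lower genes was -2.68 in neutrophils, -1.58 in CX3CR1+ macrophages, -1.55 in CD9+ macrophages and -1.41 in F4/80- myeloid cells. Neutrophils showed the largest fall for 187 of the 323, CX3CR1+ macrophages for 60, CD9+ macrophages for 45 and F4/80- cells for 31. The same count over all tested genes was not made. Tested separately, neutrophils had the most tested genes passing lower, 10.9% beside 2.24% to 3.48% in the other populations. The day 1 level was highest in neutrophils for 141 of the 323 (43.7%), near the 40.4% of all tested genes, in CD9+ macrophages for 111 (34.4%, beside 17.8%), in CX3CR1+ macrophages for 63 (19.5%, beside 19.99%) and in F4/80- cells for 8 (2.48%, beside 21.9%). The rises were more even, with medians of 1.36, 1.31, 1.24 and 1.33 in CD9+ macrophages, CX3CR1+ macrophages, F4/80- cells and neutrophils. An edgeR interaction test asks whether the size of the time change differs between populations, and 1762 tested genes (14.7%) had an adjusted p under 0.05 in it. Of the lower genes 155 of 323 (48.0%) did, and of the higher genes 13 of 120 (10.8%). At least 2 log2 units of fall in every population was reached by 47 genes, and no gene rose by that much in every population.

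**Figure D1:**
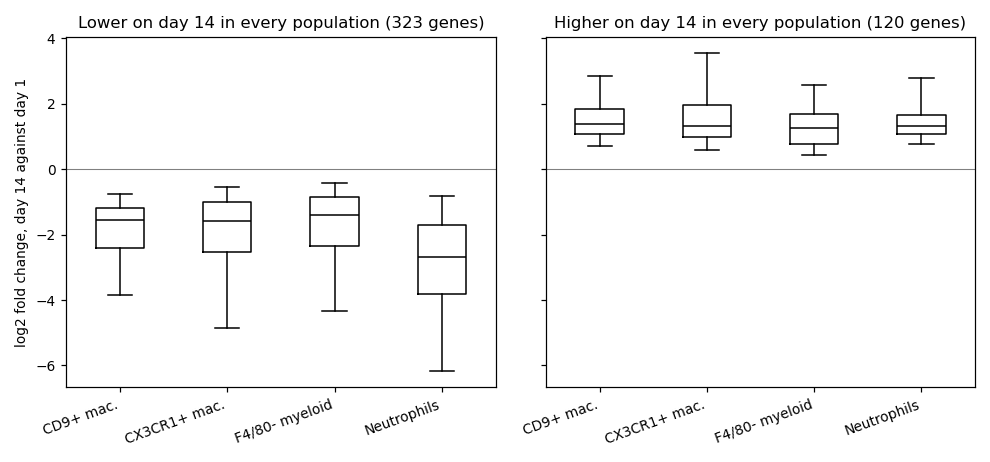
Log2 fold change of day 14 against day 1 in each population (vertical axis) for the 323 genes lower (left) and the 120 genes higher (right) in every population, where boxes span the quartiles with the median as a line and whiskers reach the 5th and 95th percentiles. The box of neutrophils lies lowest on the left (median -2.68), while the 4 boxes on the right have medians between 1.24 and 1.36.

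The steepest shared fall was that of Nos2 (chr11:78920787-78960254 in mm10), which encodes inducible nitric oxide synthase, the enzyme that makes nitric oxide from arginine in activated phagocytes. Nos2 stood at 203 and 285 CPM on day 1 and 1.34 and 0.912 CPM on day 14 in CD9+ macrophages, and at 13 and 27.3 CPM on day 1 and 0.0871 and 0.371 CPM on day 14 in CX3CR1+ macrophages. In F4/80- myeloid cells it stood at 27.2 and 50.2 CPM on day 1 and 0 and 0.163 CPM on day 14, and in neutrophils at 548 and 676 CPM on day 1 and 0 and 0.206 CPM on day 14. Day 14 levels were near 0 in every population, and no day 14 library came near a day 1 library of its population. Over all populations the log2 fold change was -8.87 ± 0.48 (SE, n = 8 libraries a day; edgeR adjusted p = 1.41e-08). The neutrophil libraries held 7314 and 7703 counts of Nos2 on day 1 and 0 and 2 on day 14, a ratio of 5472 with an exact 95% interval of 1514 to 45185 that covers counting error only. Fitted fold changes of genes with so few day 14 counts depend on the prior count of the model.

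Arg1 (chr10:24915221-24927484), which encodes arginase 1, the enzyme that takes the same arginine to ornithine, fell in parallel. It stood at 2180.1 and 2602 CPM on day 1 and 33.5 and 44 CPM on day 14 in CD9+ macrophages and at 368 and 483 CPM on day 1 and 0.784 and 1.3 CPM on day 14 in CX3CR1+ macrophages. F4/80- cells held 111 and 129 CPM on day 1 and 0 and 0.163 CPM on day 14, and neutrophils 87.4 and 82.3 CPM on day 1 and 0.12 and 0 CPM on day 14. The CD9+ gate thus had by far the highest level on both days and kept a measurable level on day 14, whereas the other populations were close to 0. The log2 fold change was -7.50 ± 0.44 (SE; edgeR adjusted p = 2.58e-08), and its size differed between populations (interaction adjusted p = 0.000114), at -5.95 in CD9+ macrophages, -8.67 in CX3CR1+ macrophages, -10.45 in F4/80- cells and -10.36 in neutrophils. In neutrophils 1165 and 938 counts on day 1 stood against 1 and 0 on day 14, a ratio of 1533 (exact 95% interval 275 to 60559).

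Saa3, the gene of an acute-phase serum amyloid made by macrophages, fell by nearly the same factor everywhere. Its levels were 34.6 and 50.4 CPM on day 1 and 1.34 and 0.71 CPM on day 14 in CD9+ macrophages, and 78.2 and 69.4 CPM on day 1 and 1.48 and 1.21 CPM on day 14 in CX3CR1+ macrophages. They were 6.98 and 6.05 CPM on day 1 and 0.0727 and 0.245 CPM on day 14 in F4/80- cells and 13.3 and 19.4 CPM on day 1 and 0.361 and 0.309 CPM on day 14 in neutrophils. The population log2 fold changes were -5.35 in CD9+ macrophages, -5.77 in CX3CR1+ macrophages, -5.32 in F4/80- cells and -5.57 in neutrophils, with an interaction adjusted p of 0.914 in edgeR. The log2 fold change over all libraries was -5.55 ± 0.18 (SE; edgeR adjusted p = 2.72e-11).

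**Figure D2:**
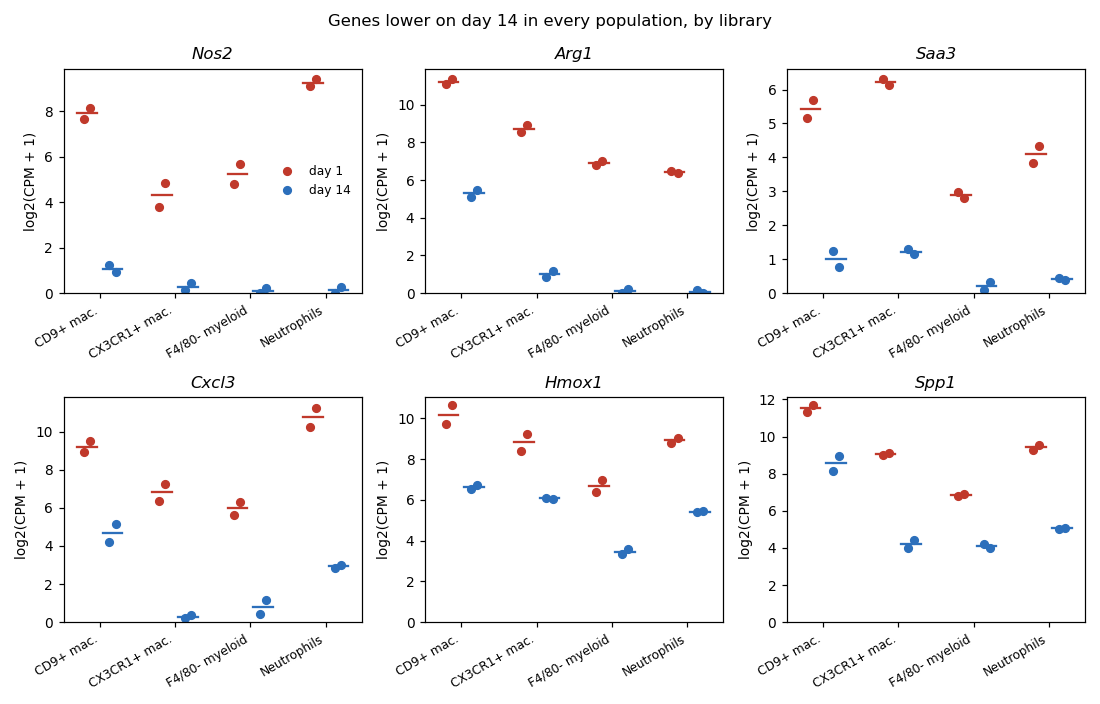
Expression by library, as log2(CPM + 1), of 6 genes lower on day 14 in every population, with points for libraries (red day 1, blue day 14) and bars for the mean of the 2 log values. In each panel and population both blue points lie below both red points, and Nos2 is close to 0 on day 14 in F4/80- cells and neutrophils.

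The 12 lower genes that rank first by their smallest fall over the 4 populations also include genes of secreted and surface proteins. Spint1, a Kunitz-type inhibitor of serine proteases, was at 52.8 and 42.9 CPM on day 1 and 0.261 and 1.21 CPM on day 14 in CX3CR1+ macrophages (log2 fold change over all libraries -5.35 ± 0.30, SE; edgeR adjusted p = 1.41e-08). In neutrophils Spint1 had 40 and 18 counts on day 1 and 0 in both day 14 libraries, at least 6.34-fold lower when set against 3 counts in the smaller day 14 library. Timp1, a tissue inhibitor of metalloproteinases, Sema3c, a secreted semaphorin, Lpar1, a receptor for lysophosphatidic acid, and Ackr3, a scavenging receptor for Cxcl12, had log2 fold changes of -3.42, -3.46, -4.07 and -4.48. These rest on low levels outside the CD9+ gate: Ackr3 held 2 and 7 counts in the day 1 neutrophil libraries and 0 on day 14. Spp1, which encodes osteopontin, was at 2582 and 3374 CPM on day 1 and 286 and 498 CPM on day 14 in CD9+ macrophages and 618 and 760.3 CPM on day 1 and 31.4 and 33 CPM on day 14 in neutrophils, with a log2 fold change of -3.76 ± 0.29 (SE; edgeR adjusted p = 4.97e-07). The size of its fall differed between populations (interaction adjusted p = 0.000616), with log2 fold changes of -2.92 in CD9+ macrophages, -4.91 in CX3CR1+ macrophages, -2.82 in F4/80- cells and -4.42 in neutrophils. The highest mean CPM of the 323, on a scale that does not account for transcript length, were those of Fth1, Tgfbi, which encodes a collagen-binding matrix protein, and Cxcl2. Tgfbi was at 4191 and 4145 CPM on day 1 and 1133 and 1199 CPM on day 14 in CX3CR1+ macrophages, where it was highest, and its log2 fold change was -1.66 ± 0.15 (SE; edgeR adjusted p = 1.72e-06).

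Inflammatory cytokines and chemokines were the pathway list with the largest share of lower genes. Of 28 tested members 17 passed lower and 2 higher, beside 4.48% and 2.2% of all tested genes, and 9 moved alike, all lower. The list's median log2 fold change was -1.16, beside -0.00029 for all tested genes. By population the median was -1.44 in CD9+ macrophages, -0.51 in CX3CR1+ macrophages, -0.37 in F4/80- cells and -2.99 in neutrophils. Summed over the 28 genes, days 1 and 14 overlapped in F4/80- cells, at 1871 and 1995 against 1763 and 1884 CPM. The sum was lower on day 14 in each other population, most in neutrophils (19741 and 33028 against 5477 and 5574 CPM). The 9 were the chemokines Cxcl1, Cxcl2, Cxcl3, Ccl2 and Ccl7, the cytokines Il1a and Il1b, the interleukin 1 receptor antagonist Il1rn, and Ptgs2, which encodes the prostaglandin-making cyclooxygenase 2. Of these, 7 passed in each of the 4 populations alone, the exceptions being Ptgs2 and Ccl2. The interaction test passed 5 of the 9.

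Cxcl1, Cxcl2 and Cxcl3 encode ligands of the neutrophil receptor Cxcr2 and are neighbours on chromosome 5. Their promoters are shown because all 3 hold the NF-kB motif that was searched, GGG and TTTCC with any 2 bases between them on either strand, here in capitals; each sequence is the 250 bases before the annotated start, 5′ to 3′ on the gene's strand, from RefSeq on GRCm38.p6. The windows are Cxcl1 chr5:90890995-90891244 (plus strand), Cxcl2 chr5:90903649-90903898 (plus strand) and Cxcl3 chr5:90785851-90786100 (plus strand).
Cxcl1: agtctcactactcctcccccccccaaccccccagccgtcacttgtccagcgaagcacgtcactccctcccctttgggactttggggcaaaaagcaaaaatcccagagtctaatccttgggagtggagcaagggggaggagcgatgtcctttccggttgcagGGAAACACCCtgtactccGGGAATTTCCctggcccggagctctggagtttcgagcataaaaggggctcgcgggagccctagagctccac
Cxcl2: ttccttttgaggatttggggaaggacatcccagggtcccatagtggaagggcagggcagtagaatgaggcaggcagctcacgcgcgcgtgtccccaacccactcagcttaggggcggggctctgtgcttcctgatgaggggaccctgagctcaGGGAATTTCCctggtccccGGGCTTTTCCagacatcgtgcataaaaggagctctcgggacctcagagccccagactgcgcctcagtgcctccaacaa
Cxcl3: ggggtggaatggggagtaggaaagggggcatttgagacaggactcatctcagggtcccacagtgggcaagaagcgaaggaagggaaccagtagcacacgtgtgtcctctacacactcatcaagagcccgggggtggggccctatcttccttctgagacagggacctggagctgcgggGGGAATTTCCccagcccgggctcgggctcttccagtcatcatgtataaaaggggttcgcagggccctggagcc

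Over the 8851 tested genes with a promoter in the table (250 bases before to 50 after the start), 2.11% held this motif. It was found in 4.57% of the 219 lower genes with a promoter, in 0 of the 62 higher genes, and in 4 of the 7 inflammatory genes that moved alike and had a promoter (57.1%), the fourth being Il1rn. Of the 4 NF-kB subunit and feedback genes that moved alike, 0 held it. Among pattern recognition genes that moved alike it was in 0 of the 4 with a promoter. A match is a description of the letters and not evidence of a bound site. Here and for the motifs below, list members that did not move alike were not counted as a set. The shares among members that moved alike therefore cannot be tied to the time change.

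Cxcl3 was at 1235 and 2428 CPM on day 1 and 6.14 and 7.1 CPM on day 14 in neutrophils, and at 490.0 and 718 CPM on day 1 and 17.7 and 34.2 CPM on day 14 in CD9+ macrophages. In CX3CR1+ macrophages it was at 81.7 and 153 CPM on day 1 and 0.174 and 0.278 CPM on day 14, and in F4/80- cells at 47.7 and 79.5 CPM on day 1 and 0.364 and 1.22 CPM on day 14. All day 14 values lay far below the day 1 values of the same population, and only CD9+ macrophages kept more than 8 CPM. Its log2 fold change was -6.59 ± 0.54 (SE; edgeR adjusted p = 8.84e-07, interaction adjusted p = 0.00272). Cxcl2 had 6783 and 12316 CPM on day 1 and 466 and 452 CPM on day 14 in neutrophils and 838 and 1284 CPM on day 1 and 133 and 239 CPM on day 14 in CD9+ macrophages, and a log2 fold change of -3.42 ± 0.25 (SE; edgeR adjusted p = 3.82e-07). Both ligands were detected in every day 14 library. Cxcl1 was at 25.2 and 42 CPM on day 1 and 5.86 and 8.41 CPM on day 14 in CD9+ macrophages, and had a log2 fold change of -3.61 ± 0.51 (SE; edgeR adjusted p = 0.000134).

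Il1a, which encodes a cytokine that also acts from the cell membrane and nucleus, was at 202 and 542 CPM on day 1 and 1.57 and 2.16 CPM on day 14 in neutrophils and at 65.4 and 67.7 CPM on day 1 and 3.07 and 3.65 CPM on day 14 in CD9+ macrophages. The size of its fall differed between populations (interaction adjusted p = 0.0134 in edgeR), from a log2 fold change of -3.06 in CX3CR1+ macrophages to -7.62 in neutrophils. Il1b fell less, by a log2 fold change of -1.79 ± 0.15 (SE; edgeR adjusted p = 1.16e-06), and neutrophils still held 1623 and 1653 CPM on day 14. Il1rn, the antagonist of both, moved with them, from 1528 and 2544 CPM to 311 and 315 CPM in neutrophils and by a log2 fold change of -2.06 ± 0.16 over all populations (SE; edgeR adjusted p = 6.43e-07).

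The monocyte chemoattractants Ccl2 and Ccl7 are neighbours on chromosome 11, and Ccl7 fell the more, by a log2 fold change of -4.07 ± 0.24 against -1.84 ± 0.35 for Ccl2 (SE; edgeR adjusted p = 2.83e-08 and 0.00126). Ccl2 kept 367 and 485 CPM on day 1 and 209 and 181 CPM on day 14 in CX3CR1+ macrophages. In F4/80- cells the fall of Ccl2 was -0.43 and did not pass, and the sizes differed between populations (interaction adjusted p = 2.95e-05). Ptgs2 passed narrowly, at -1.03 ± 0.26 (SE; edgeR adjusted p = 0.00899), with -2.56 in CD9+ macrophages and -0.27 in F4/80- cells, and without the CD9+ libraries it no longer passed. Both members that passed higher did so in some populations only: Il6 was at 54.2 and 62.2 CPM on day 1 and 133 and 122 CPM on day 14 in F4/80- cells and did not separate in CX3CR1+ macrophages, and Ccl5 had a log2 fold change of 2.28 from levels under 1 CPM on day 1. Tnf did not pass, at -0.82 ± 0.33 (SE; edgeR adjusted p = 0.0767), with -2.77 in neutrophils and 0.31 in F4/80- cells.

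Of 24 NF-kB subunits and feedback genes 5 passed lower and 4 moved alike (Traf1, Icam1, Tnip1 and Sod2), with a list median of -0.67. All 4 fell most in neutrophils and passed the interaction test, beside 187 and 155 of the 323 lower genes. Icam1, an adhesion molecule for leukocyte integrins, shows the pattern: 193 and 300.4 CPM on day 1 and 5.9 and 6.48 CPM on day 14 in neutrophils, but 78 and 70.9 CPM on day 1 and 43.5 and 44.5 CPM on day 14 in CX3CR1+ macrophages and 22.3 and 18.4 CPM on day 1 and 14.3 and 13.7 CPM on day 14 in F4/80- cells. Its edgeR adjusted p over all libraries was 0.044, and it was lost under 20 of 35 other settings. Of 30 pattern recognition genes 5 passed lower and all 5 moved alike, namely Tlr1, Cd14, the formyl peptide receptor gene Fpr1, and the C-type lectin genes Clec4d and Clec4e. Clec4e fell evenly, by a log2 fold change of -1.37 ± 0.12 (SE; edgeR adjusted p = 1.72e-06), with an interaction adjusted p of 0.496. Fpr1 was held by neutrophils on both days, at 612 and 583 CPM on day 1 and 349 and 325 CPM on day 14, and fell by a log2 fold change of -4.75 in F4/80- cells.

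Among the 20 pathway lists, that of glycolysis and the hypoxia response held the largest number of genes that moved alike. Of 36 tested members 15 passed lower and none higher, 13 moved alike, and the list median was -0.98. The 13 were the HIF-1 feedback hydroxylase Egln3, the lipid-droplet regulator Hilpda, Ankrd37, the mitophagy receptor Bnip3, the collagen prolyl hydroxylase subunits P4ha1 and P4ha2, the glucose transporter Slc2a1, the angiogenic factor Vegfa, Hif1a itself, and the glycolytic enzymes Pfkl, Pfkp, Aldoa and Tpi1. The fall was largest in neutrophils for 11 of them, and 11 passed the interaction test, beside 187 and 155 of the 323 lower genes.

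Promoters of Ankrd37, P4ha1 and Bnip3 are shown as examples with the 5-base core of the hypoxia response element, ACGTG on either strand, in capitals. The windows are Ankrd37 chr8:45999851-46000100 (minus strand), P4ha1 chr10:59323046-59323295 (plus strand) and Bnip3 chr7:138909507-138909756 (minus strand), taken in the same way.
Ankrd37: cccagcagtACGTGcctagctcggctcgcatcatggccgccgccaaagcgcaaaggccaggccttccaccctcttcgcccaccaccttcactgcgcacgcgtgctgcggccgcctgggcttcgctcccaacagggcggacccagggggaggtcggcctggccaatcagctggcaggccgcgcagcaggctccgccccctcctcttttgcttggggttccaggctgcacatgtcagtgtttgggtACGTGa
P4ha1: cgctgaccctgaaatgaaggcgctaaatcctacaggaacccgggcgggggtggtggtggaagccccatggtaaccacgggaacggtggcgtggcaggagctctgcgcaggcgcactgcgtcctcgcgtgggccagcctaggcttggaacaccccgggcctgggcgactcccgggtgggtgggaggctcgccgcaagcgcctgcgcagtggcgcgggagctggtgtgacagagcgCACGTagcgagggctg
Bnip3: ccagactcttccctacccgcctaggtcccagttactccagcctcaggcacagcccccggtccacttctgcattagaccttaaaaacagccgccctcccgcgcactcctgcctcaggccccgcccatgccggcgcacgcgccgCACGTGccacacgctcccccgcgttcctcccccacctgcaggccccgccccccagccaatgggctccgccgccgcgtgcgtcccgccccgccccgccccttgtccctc

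This core is short and common, in 29.8% of the 8851 tested genes with a promoter, 40.6% of the lower genes, 16.1% of the higher genes and 10 of the 13 list members (76.9%). The core also lies within the E-box CACGTG, which reads the same on both strands, as the 2 overlapping matches in Bnip3 show.

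The fall of Bnip3 differed in size between populations. It was at 526 and 527 CPM on day 1 and 17.9 and 18.2 CPM on day 14 in neutrophils and at 85.5 and 81.4 CPM on day 1 and 16.1 and 15.5 CPM on day 14 in CD9+ macrophages. In CX3CR1+ macrophages it was at 26.1 and 30.9 CPM on day 1 and 13 and 10.3 CPM on day 14, and in F4/80- cells at 24.6 and 26.4 CPM on day 1 and 4.95 and 4.41 CPM on day 14. Every population separated, but neutrophils started highest and fell furthest. The log2 fold changes were -2.40 in CD9+ macrophages, -1.29 in CX3CR1+ macrophages, -2.44 in F4/80- cells and -4.86 in neutrophils, with an interaction adjusted p of 6.92e-07, and -2.73 ± 0.37 over all populations (SE; edgeR adjusted p = 8.13e-05). Egln3 behaved in the same manner, at 544 and 671 CPM on day 1 and 19.5 and 21.2 CPM on day 14 in neutrophils and 13.5 and 14.8 CPM on day 1 and 2.96 and 1.58 CPM on day 14 in CX3CR1+ macrophages, with a log2 fold change of -3.15 ± 0.36 (SE; edgeR adjusted p = 1.73e-05). Slc2a1, the main glucose transporter of activated macrophages, was at 148 and 318 CPM on day 1 and 34.1 and 35.5 CPM on day 14 in CD9+ macrophages and at 621 and 704 CPM on day 1 and 73.1 and 62.4 CPM on day 14 in neutrophils, with a log2 fold change of -2.37 ± 0.23 (SE; edgeR adjusted p = 4.03e-06).

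P4ha1 had a log2 fold change of -6.22 in neutrophils, from 346 and 426 CPM to 5.66 and 4.73 CPM, and had log2 fold changes between -0.95 and -1.57 in the other populations. Hif1a, which encodes the oxygen-regulated subunit of HIF-1, fell by -1.34 ± 0.15 on the log2 scale (SE; edgeR adjusted p = 2.18e-05), with -0.43 in F4/80- cells. Genes of 3 further glycolytic enzymes stayed just under the fold threshold, with log2 fold changes of -0.9963 for Pkm, -0.96 for Gapdh and -0.92 for Ldha and edgeR adjusted p of 1.9e-05, 1.42e-06 and 4.44e-06. Without a fold threshold, 26 members passed in place of 15. Slc2a3, the other glucose transporter of myeloid cells, had a log2 fold change of 0.49 and did not pass. Summed over the 36 genes, the level went from 25131 and 25438 CPM on day 1 to 11153 and 11181 CPM on day 14 in neutrophils, and from 6295 and 6411 CPM to 4676 and 4812 CPM in F4/80- cells. None of 87 respiratory chain subunits passed (list median -0.14).

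Of 21 genes of ER stress and the amino acid response, 10 passed lower and none higher, 9 moved alike, and the list median was -0.87. The 9 were the luminal chaperones Hspa5 (BiP), Hyou1 and Calr, the disulfide isomerases Pdia4 and Pdia6, the ER stress proteins Creld2, Manf and Sdf2l1, and the cystine transporter Slc7a11. Of these, 8 fell most in neutrophils and 6 passed the interaction test, beside 187 and 155 of the 323 lower genes. Promoters of Hspa5, Pdia6 and Creld2 are shown because they hold the whole ER stress response element, CCAAT and CCACG with any 9 bases between them on either strand, in capitals. The element contains the CCAAT box. The windows are Hspa5 chr2:34771840-34772089 (plus strand), Pdia6 chr12:17266339-17266588 (plus strand) and Creld2 chr15:88819396-88819645 (plus strand).
Hspa5: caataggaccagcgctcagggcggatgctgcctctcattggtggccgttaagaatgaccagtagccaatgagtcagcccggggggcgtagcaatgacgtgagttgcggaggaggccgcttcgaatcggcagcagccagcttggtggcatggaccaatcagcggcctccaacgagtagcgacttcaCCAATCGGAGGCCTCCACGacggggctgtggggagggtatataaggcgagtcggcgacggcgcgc
Pdia6: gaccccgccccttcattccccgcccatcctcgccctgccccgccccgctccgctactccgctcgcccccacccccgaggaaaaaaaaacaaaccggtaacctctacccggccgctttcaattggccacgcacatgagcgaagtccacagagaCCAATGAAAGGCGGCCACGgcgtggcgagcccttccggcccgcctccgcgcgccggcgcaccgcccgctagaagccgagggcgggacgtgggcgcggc
Creld2: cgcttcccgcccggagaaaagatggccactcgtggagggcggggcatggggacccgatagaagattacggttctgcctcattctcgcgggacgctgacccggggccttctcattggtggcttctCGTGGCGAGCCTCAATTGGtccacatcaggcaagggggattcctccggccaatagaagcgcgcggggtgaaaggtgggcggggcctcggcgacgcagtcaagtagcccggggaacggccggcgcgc

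The element occurred in 14 of the 8851 tested genes with a promoter (0.158%), and 4 of those 14 were among the lower genes that moved alike: Hspa5, Pdia6, Creld2 and Calr. They make up 4 of the 7 listed ER genes that moved alike and had a promoter (57.1%), and all 7 held a CCAAT box, which 43.1% of the 8851 genes hold.

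Hspa5, the chaperone that holds the ER stress sensors inactive, was at 1414 and 1757 CPM on day 1 and 284 and 284 CPM on day 14 in neutrophils and at 818 and 1214 CPM on day 1 and 378 and 414 CPM on day 14 in CD9+ macrophages. CX3CR1+ macrophages held 749 and 795 CPM on day 1 and 372 and 355 CPM on day 14, and F4/80- cells 886 and 868 CPM on day 1 and 395 and 346 CPM on day 14. On day 14 the level spanned a narrow range over the populations, between 284 and 414 CPM, and on day 1 it was highest in neutrophils. The log2 fold change was -1.53 ± 0.17 (SE; edgeR adjusted p = 1.21e-05, interaction adjusted p = 0.00254). Creld2 fell by a log2 fold change of -1.69 ± 0.16 and Pdia6 by -1.43 ± 0.18 (SE; edgeR adjusted p = 4.52e-06 and 3.81e-05). Without the neutrophil libraries Calr, Manf and Pdia4 no longer passed, and 6 members of the list did in place of 10. The transcription factor genes of the response did not pass, at log2 fold changes of -0.14 for Atf4, -0.10 for Xbp1 and 0.05 for Ddit3, with edgeR adjusted p of 0.109, 0.732 and 0.859. Xbp1 is regulated by splicing, which gene counts do not show.

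**Figure D3:**
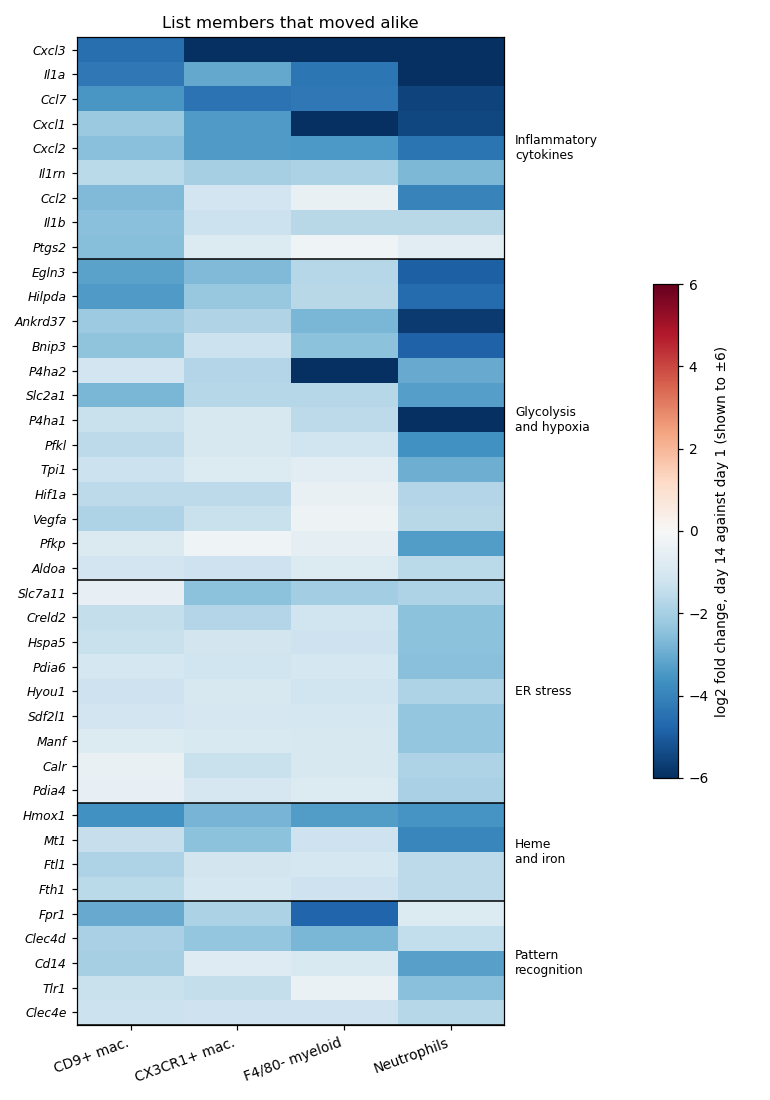
Log2 fold change of day 14 against day 1 in each population (columns) for the members of 5 gene lists that moved alike (rows, by list and size), with colours limited to ±6 and blue for lower. All cells are blue, and in the glycolysis and ER groups the neutrophil column is the darkest for 11 of 13 and 8 of 9 genes.

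Among 24 genes of heme, iron and oxidative stress, 6 passed lower and 4 moved alike, and these 4 passed in each population alone. Hmox1, the enzyme that breaks down heme, was at 838 and 1617 CPM on day 1 and 92.8 and 105 CPM on day 14 in CD9+ macrophages and at 340.0 and 597 CPM on day 1 and 67.6 and 65.8 CPM on day 14 in CX3CR1+ macrophages. In F4/80- cells it was at 82.9 and 124 CPM on day 1 and 9.09 and 10.9 CPM on day 14, and in neutrophils at 444 and 524 CPM on day 1 and 41 and 43 CPM on day 14. Every population fell by a similar factor, between -2.81 and -3.63 on the log2 scale (interaction adjusted p = 0.402), and the log2 fold change was -3.34 ± 0.18 (SE; edgeR adjusted p = 1.41e-08). The ferritin genes Fth1 and Ftl1, whose proteins store iron, fell by -1.37 ± 0.12 and -1.38 ± 0.14 on the log2 scale (SE; edgeR adjusted p = 2.28e-06 and 4.74e-06), and Fth1 was at 4889.7 and 7634 CPM on day 1 and 2147 and 2092 CPM on day 14 in neutrophils. Ftl1 shares reads with processed copies, so its level is less certain. Mt1, a metallothionein that binds zinc, had a log2 fold change of -2.03 ± 0.27 (SE; edgeR adjusted p = 6.27e-05). The factor gene Nfe2l2 and its targets Nqo1 and Gclm did not pass, at -0.19, -0.83 and -0.42, and the list median was -0.39.

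Of 31 genes of macrophage repair and lipid handling 9 passed lower and 5 moved alike: Arg1, Spp1, Tgfbi, the cholesterol exporter Abca1 and the lipid-droplet protein Plin2. All 5 passed the interaction test. Abca1 was at 361 and 549.7 CPM on day 1 and 5.42 and 10.1 CPM on day 14 in neutrophils and at 335 and 593 CPM on day 1 and 129 and 228 CPM on day 14 in CD9+ macrophages, and had a log2 fold change of -3.00 ± 0.49 (SE; edgeR adjusted p = 0.000376). Of the macrophage markers, Mertk, a receptor for dying cells, and Fcgr1, the high-affinity IgG receptor, were among those that moved alike. The macrophage marker list had 5 of 15 genes lower, beside 4.48% of all tested genes. Its summed level went from 15490 and 20344 CPM to 5362 and 7278 CPM in the CD9+ gate and stood at 14836 and 16168 CPM against 14232 and 14519 CPM in the CX3CR1+ gate. In the neutrophil gate it went from 1463 and 1751 CPM to 624 and 638 CPM. The days overlapped in F4/80- cells, at 2237 and 2380 against 2198 and 2389 CPM. The summed eosinophil markers of the CD9+ gate went from 663 and 676 CPM to 7231 and 11738 CPM. In the CX3CR1+ gate they stood at 35.5 and 78.2 CPM on day 1 and 88.7 and 131 CPM on day 14. The part of such shifts in the falls was not tested.

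Of 20 glucocorticoid-responsive genes 6 passed lower and 1 higher, and 6 moved alike. Zbtb16 (PLZF), a zinc finger repressor, was the single higher member, at 1.14 ± 0.22 (SE; edgeR adjusted p = 0.00128), and it no longer passed without CX3CR1+ macrophages. The lower members Tgm2 (transglutaminase 2), Errfi1, Mt1, Slc7a8 and Cdkn1a had log2 fold changes of -2.85, -1.86, -2.03, -1.75 and -1.70, so the list as a whole did not move together, and its median was -0.10. In the lysosome list 4 of 30 passed lower and the cathepsin genes Ctsl, Ctsc and Ctsz moved alike. Among 29 immediate early genes 3 passed lower and 1 higher, and Egr2 moved alike (-1.50). Among 16 heat shock chaperones Hsph1 alone passed (-1.48). Over all tested genes 4.48% passed lower and 2.2% higher, and 2.69% and 1% moved alike. A single pass in a list of this length is near those shares.

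Other programmes of these cells showed no shared change at these thresholds. None of 44 interferon-stimulated genes passed in either direction (median log2 fold change -0.18), nor any of 10 MHC class II genes (-0.04), 20 MHC class I genes (0.05), 40 cell cycle genes (0.17) or 21 genes of cholesterol synthesis (0.05). Of 82 cytosolic ribosomal protein genes 1 passed, Rps12l1, a copy that can share reads with Rps12. In the list of 19 clock genes 1 passed higher and 1 lower, and none moved alike. Of all tested genes 6.68% passed, so a short list could hold few passes or none at that share. A list without a pass may still hold changes that differ between populations: 9 of the 44 interferon-stimulated genes and 5 of the 10 MHC class II genes passed the interaction test, beside 14.7% of all tested genes. In all, 7 of the 20 pathway lists had no member that moved alike, and 265 of the 323 lower and 118 of the 120 higher genes were in none of these lists.

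**Figure D4:**
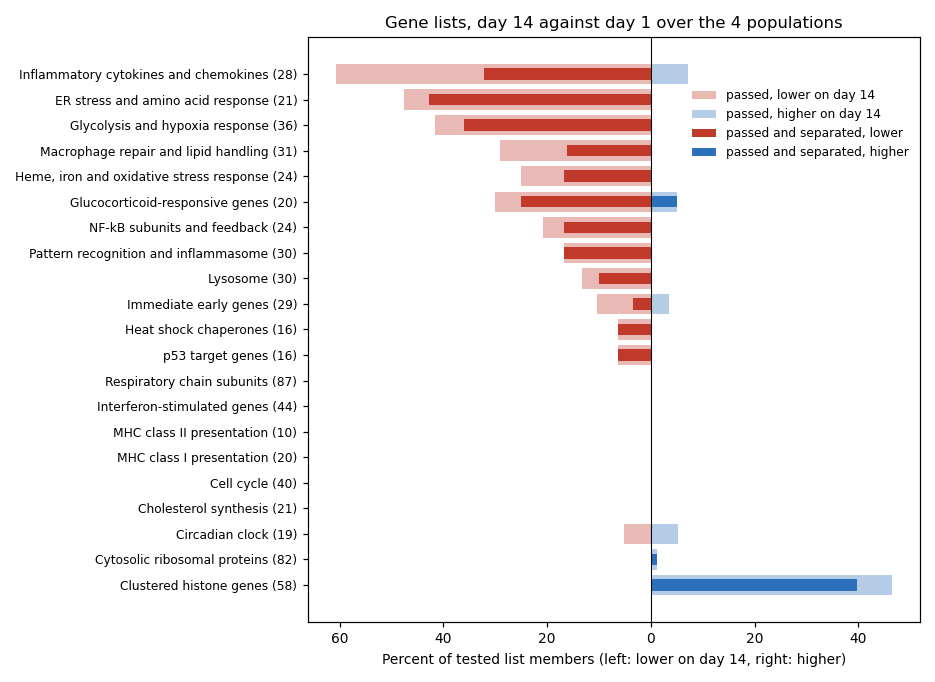
Percent of the tested members of each of the 20 pathway lists and of the clustered histone genes (number tested in brackets) that passed the test of day over the 4 populations, to the left lower and to the right higher on day 14, with dark bars for members that also separated in every population. Inflammatory cytokines lead on the left (17 of 28 genes) and clustered histone genes on the right (27 of 58), and 6 lists have no bar.

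The genes higher on day 14 in every population had a median log2 fold change of 1.29, beside -1.75 for the lower genes. Both sets were chosen by a change of at least 1 log2 unit. Among the 12 ranking highest by their smallest rise was Tmem160, at 3.96 and 3.8 CPM on day 1 and 13.4 and 17.1 CPM on day 14 in CD9+ macrophages and 2.28 and 1.62 CPM on day 1 and 16.7 and 15 CPM on day 14 in CX3CR1+ macrophages. In F4/80- cells it was at 1.71 and 2.43 CPM on day 1 and 13.5 and 11 CPM on day 14, and in neutrophils at 1.27 and 2.9 CPM on day 1 and 11.1 and 10.2 CPM on day 14. The day 14 levels lay between 10.2 and 17.1 CPM in all libraries and every day 1 level was under 4 CPM. The log2 fold change was 2.48 ± 0.19 (SE; edgeR adjusted p = 5.52e-07, interaction adjusted p = 0.413). Lmo1, a LIM-domain cofactor of transcription, was at 6.67 and 7.55 CPM on day 1 and 26.3 and 31.9 CPM on day 14 in neutrophils and 1.93 and 1.57 CPM on day 1 and 10.8 and 9.1 CPM on day 14 in CX3CR1+ macrophages, with a log2 fold change of 1.96 ± 0.14 (SE; edgeR adjusted p = 2.24e-07). Med30, a subunit of the Mediator complex, rose by nearly the same amount in every population, with a log2 fold change of 1.36 ± 0.14 (SE; edgeR adjusted p = 7.24e-06) and an interaction adjusted p of 0.98.

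Receptor and enzyme genes were also among these 12. Il12rb2, a subunit of the interleukin 12 receptor, was at 1.45 and 2.2 CPM on day 1 and 8.54 and 10.1 CPM on day 14 in CX3CR1+ macrophages and under 1 CPM in neutrophils on both days, with a log2 fold change of 2.06 ± 0.30 (SE; edgeR adjusted p = 0.000154). S1pr5, a receptor for sphingosine-1-phosphate, was at 1.71 and 3.24 CPM on day 1 and 9.67 and 13.9 CPM on day 14 in CX3CR1+ macrophages and under 1 CPM in F4/80- cells and neutrophils, with a log2 fold change of 2.10 ± 0.35 (SE; edgeR adjusted p = 0.000521). B3gnt2, a glycosyltransferase that builds polylactosamine chains, went in F4/80- cells from 1.61 and 2.34 CPM to 18.1 and 14.6 CPM, while day 1 neutrophils held 1.87 and 14 CPM and so differed among themselves. Chst13, a chondroitin sulfotransferase, Mogat2, a monoacylglycerol acyltransferase, Tusc1 and Smim6 had log2 fold changes of 1.87, 1.53, 1.91 and 2.07. Mogat2 was at or below 0.464 CPM in every CX3CR1+ library.

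Histone genes formed the largest group of related genes among the 120. The list of clustered, replication-dependent histone genes was drawn up after their values were seen, so its count describes the pattern and tests nothing. Of 58 tested genes 27 passed higher and none lower, beside 2.2% of all tested genes, and 23 of the 120 genes that moved alike were histone genes. By protein, 11 of 14 H2A, 9 of 13 H4, 6 of 10 H3 and 1 of 16 H2B genes passed, and 0 of 5 genes of the linker histone H1, with median log2 fold changes of 1.37, 1.05, 1.09, 0.54 and 0.54. The single H2B gene was Hist1h2bb (1.25 ± 0.17, SE; edgeR adjusted p = 9.79e-05). Only 1 of the 58 passed the interaction test.

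Hist1h4c, which encodes histone H4, was at 58.6 and 34.4 CPM on day 1 and 159 and 149 CPM on day 14 in CD9+ macrophages and at 51.2 and 44.1 CPM on day 1 and 122 and 87.2 CPM on day 14 in CX3CR1+ macrophages. It was at 60.0 and 64.8 CPM on day 1 and 256 and 202 CPM on day 14 in F4/80- cells and at 25.9 and 16.5 CPM on day 1 and 70.0 and 64.4 CPM on day 14 in neutrophils. Each population separated by day, and the log2 fold change was 1.60 ± 0.14 (SE; edgeR adjusted p = 1.92e-06). Hist1h2ag, an H2A gene, was at 8.25 and 7.02 CPM on day 1 and 24 and 16.6 CPM on day 14 in neutrophils and 25.9 and 28.3 CPM on day 1 and 102 and 76.5 CPM on day 14 in F4/80- cells, with a log2 fold change of 1.46 ± 0.22 (SE; edgeR adjusted p = 0.000194). In both CD9+ and CX3CR1+ macrophages the day 1 replicates of Hist1h2ag differed by more than 2-fold. Summed over the 58 genes, day 1 and day 14 libraries stood at 6889 and 7267 against 14540 and 16250 CPM in F4/80- cells, and at 1894 and 2698 against 4065 and 4709 CPM in neutrophils. They stood at 4737 and 8015 against 9057 and 11512 CPM in CD9+ macrophages, and at 3642 and 6149 against 6481 and 7857 CPM in CX3CR1+ macrophages.

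The mRNAs of these histones end in a stem loop and carry no poly(A) tail, and the library kit primes total RNA at random sites. Near-identical copies lie in clusters, and reads that map to several of them make the values of single genes uncertain. The sum of 40 cell cycle genes, by comparison, was at 5614 and 5776 CPM on day 1 against 5179 and 5845 CPM on day 14 in CX3CR1+ macrophages, and at 2070 and 3010 against 3472 and 3792 CPM in neutrophils. It was at 9389 and 9401 against 11108 and 11432 CPM in F4/80- cells, and at 6285 and 7968 against 7209 and 9671 CPM in CD9+ macrophages, so that the days separated in F4/80- cells and neutrophils and overlapped in both macrophage populations. Rn7sk, a small nuclear RNA without a poly(A) tail that restrains transcription elongation, had the highest mean CPM of the 120, on the same scale without transcript length. It was at 1360.4 and 1169 CPM on day 1 and 4357 and 3219.7 CPM on day 14 in F4/80- cells and at 2618 and 4405 CPM on day 1 and 5828 and 7229.6 CPM on day 14 in neutrophils, with a log2 fold change of 1.12 ± 0.17 (SE; edgeR adjusted p = 0.000263). When an offset for transcript length and GC content was added, a setting chosen after seeing the data, Rn7sk no longer passed, while 26 histone genes did. The median transcript length was 1784 bases for the higher, 2861 for the lower and 3275 for all tested genes.

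**Figure D5:**
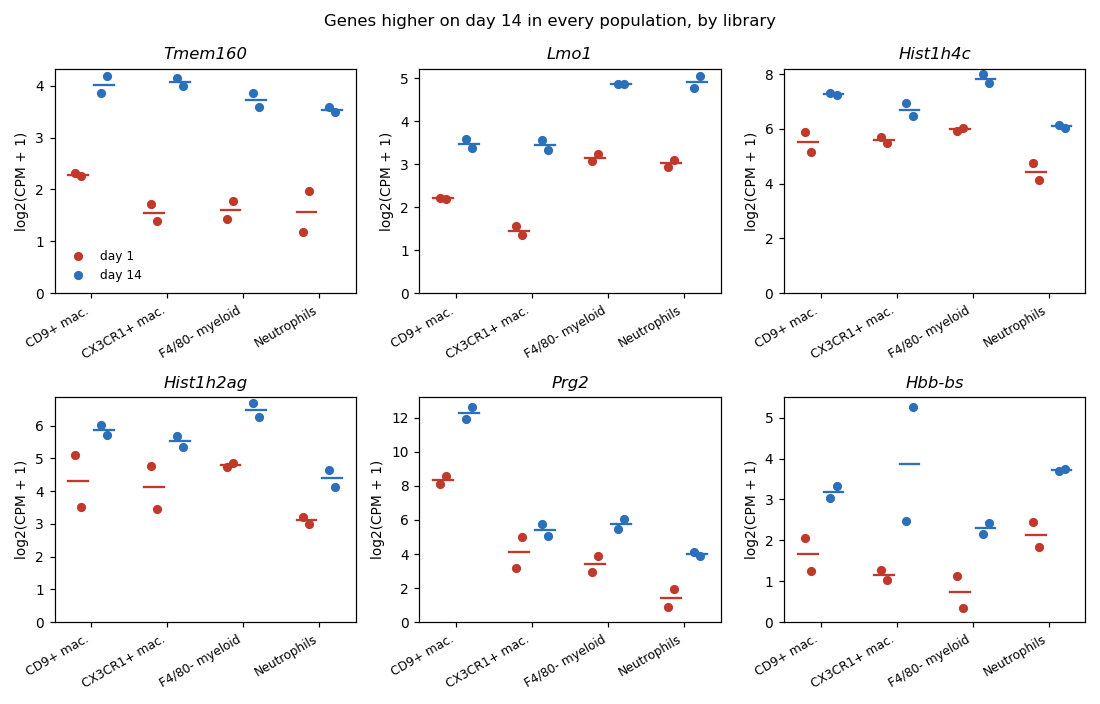
Expression by library, as log2(CPM + 1), of 6 genes higher on day 14 in every population, with points for libraries (red day 1, blue day 14) and bars for the mean of the 2 log values. Both blue points lie above both red points in each population, by the widest margin for Prg2 in CD9+ macrophages, and a single day 14 library of CX3CR1+ macrophages stands high for Hbb-bs.

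Markers of other cell types were also among the higher genes. Of 9 eosinophil markers 7 passed higher, beside 2.2% of all tested genes, and Prg2, Prg3 and Il5ra moved alike. Prg2, the eosinophil granule major basic protein, was at 281 and 389.6 CPM on day 1 and 3927 and 6237 CPM on day 14 in CD9+ macrophages, and at 7.95 and 31.4 CPM on day 1 and 53.1 and 31.8 CPM on day 14 in CX3CR1+ macrophages. It was at 6.68 and 14 CPM on day 1 and 42.6 and 65.3 CPM on day 14 in F4/80- cells and 0.825 and 2.9 CPM on day 1 and 16.3 and 13.7 CPM on day 14 in neutrophils. The day 14 level was far higher in the CD9+ gate than in any other, and in CX3CR1+ macrophages the higher day 1 library nearly reached the lower day 14 library. Its log2 fold change was 2.60 ± 0.41 (SE; edgeR adjusted p = 0.000306). Of 10 listed erythroid genes 5 were tested, and a gene could enter the test through its day 14 level alone, so their direction was in part set by that filter. All 5 passed higher, and the hemoglobin gene Hbb-bs moved alike at 2.51 ± 0.45 (SE; edgeR adjusted p = 0.000812), with 4.53 and 37 CPM in the day 14 CX3CR1+ libraries. Summed erythroid markers were between 0.593 and 15.0 CPM on day 1 and between 10.2 and 85.4 CPM on day 14 over all libraries. Of the 5 erythroid genes 1 passed without CX3CR1+ macrophages, 3 without F4/80- cells and 2 when tested against a 1.5-fold change, and of the eosinophil markers 4 passed without the CD9+ gate. The neutrophil marker list had 1 gene higher, Ly6g (1.10 ± 0.30, SE; edgeR adjusted p = 0.0134), and 2 lower of 18, beside 2.2% and 4.48% of all tested genes. Its sum in the neutrophil gate was 69083 and 110624 CPM on day 1 against 130116 and 137788 CPM on day 14. The part of other cells in the gates in the rises was not tested.

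The genes nearest to the fold threshold were Qpct (1.0013) and Gpr137c (1.0005) just inside it and Hax1 (-0.9997) and Pkm (-0.9963) just outside, as log2 fold changes. Neither Qpct nor Gpr137c separated in every population, while Hax1 and Pkm did. Pseudogenes made up 10.5% of the 323 lower genes and 5% of the 120 higher genes, beside 2.68% of the tested genes, and their reads can come from the parent genes. At the other extreme, 69 of the 11998 tested genes passed in opposite directions in different populations. Those with the widest gap between populations were Jam2 and Icam5, genes of adhesion molecules, and Adgra2, an adhesion G protein-coupled receptor gene, all at low levels. Jam2 was at 0 and 0 CPM on day 1 and 2.02 and 3.35 CPM on day 14 in CD9+ macrophages and at 3.82 and 4.48 CPM on day 1 and 0.361 and 0.103 CPM on day 14 in neutrophils.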

How the data were processed

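RNA of sorted cells was made into SMART-Seq Stranded libraries, primed at random sites. According to the study's methods the authors trimmed reads with Cutadapt, mapped them to mm10 with STAR and counted reads in exons of a Gencode annotation; whether counting used strand is not given in the sources used here. The deposited values are raw counts per gene for 20200 genes. Libraries held 9233952 to 19814119 counts, which limits the precision of genes with few counts.

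The tests were run on the 11998 genes whose mean reached 3 CPM in any of the 8 groups. R 4.3.3 with edgeR 4.0.16 (TMM factors, glmQLFit and glmQLFTest) was run with population and day as terms over all 16 libraries, and again with 8 group means for changes per population and their interaction. Adjusted p is Benjamini-Hochberg over all tested genes, and genes passed where it was below 0.05 and the change reached 1 log2 unit either way. Alternatives used limma 3.58.1 and DESeq2 1.42.0, other scaling, filters and thresholds, length and GC offsets (added after seeing the data), and left out each library or population. Scripts were tested on simulated data. Replicates are pools of mice and the populations of a day shared mice, so the libraries of a day are not all independent. The p-values measure the spread between these libraries, and the 4 libraries with the same replicate number share mice if those numbers mark pools. Counting intervals are exact at 95% and cover counting error only.

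Members and gene lists were chosen with earlier results of these data known. Genes named were, among those that moved alike, the 12 in each direction with the largest smallest change over populations, the 3 with the highest mean CPM in each direction, members of the gene lists that moved alike with up to 3 further members, the sort genes, the 3 genes most opposed between populations, and 2 genes on each side of the fold threshold. The histone list was added after seeing values, and Hist1h4c and Hist1h2bb were named from it. Promoter windows came from RefSeq (GRCm38.p6) and were matched by Ensembl gene ID, or by symbol where the ID had no match. Of the 11998 tested genes 8851 had at least 1 window, and a gene counted if any of its windows held the motif.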

Additional observations from a re-analysis of the deposited data

Results flagged for a closer look

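Among the 101 genes named by the rule, 51 had a time change whose size or direction differed between populations by the edgeR interaction test over the 8 groups, and the value in brackets after a gene is its adjusted p. For 44 of them the log2 fold change was below 0 in every population and the sizes differed. It was lowest in neutrophils for 34 of these: Il1a (0.0134), Ccl2 (2.95e-05), Traf1 (0.000431), Icam1 (7.27e-07), Tnip1 (9.78e-06), Sod2 (2.42e-05), Egr2 (0.00532), Hsph1 (0.000246), Hspa5 (0.00254), Pdia4 (0.00213), Calr (0.00204), Manf (0.00269), Pdia6 (0.000566), Sdf2l1 (0.0476), Slc2a1 (0.0122), Hilpda (0.00983), Tpi1 (0.000360), Bnip3 (6.92e-07), Ankrd37 (0.00936), P4ha1 (5.51e-07), Pfkl (0.000379), Egln3 (6.73e-05), Hif1a (0.00118), Pfkp (0.000147), Mt1 (0.00247), Errfi1 (0.00667), Slc7a8 (0.00153), Cdkn1a (6.92e-07), Abca1 (0.000118), Plin2 (0.00199), Ctsz (0.00207), Ctsc (0.000220), Tlr1 (0.0162) and Cd14 (6.73e-05). It was lowest in CD9+ macrophages for 5: Tgfbi (0.0134), Ptgs2 (0.00200), Il1b (0.0170), Vegfa (0.00495) and Ctsl (0.0277). It was lowest in CX3CR1+ macrophages for Cxcl3 (0.00272), Spp1 (0.000616) and Tgm2 (0.00398), and in F4/80- cells for Arg1 (0.000114) and Fpr1 (5.34e-05). Arg1 fell least in CD9+ macrophages (log2 fold change -5.95) and most in F4/80- cells (-10.45), where day 14 libraries held at most 2 counts.

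Prg3 (0.0119) was above 0 in every population, from 0.92 in CX3CR1+ macrophages to 3.88 in CD9+ macrophages. For 6 genes the direction of the estimates differed. Of the genes of the sort, Cx3cr1 (0.000193) had log2 fold changes of 0.96 in CX3CR1+ macrophages and -1.48 in neutrophils, Cd9 (4.23e-05) of 0.13 in CD9+ and -1.59 in CX3CR1+ macrophages, and Adgre1 (0.0497), which encodes F4/80, of 0.37 in CD9+ macrophages and -0.94 in neutrophils. Jam2 (0.00525) had log2 fold changes of 8.20 in CD9+ macrophages and -4.15 in neutrophils, Adgra2 (0.0232) of 5.01 and -6.79, and Icam5 (0.0181) of 6.69 and -4.24. Jam2, Adgra2 and Icam5 were chosen for their gap between populations, and groups with 0 counts make the fitted sizes depend on the prior count.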

How the results depend on the processing

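Requiring 3 CPM in every group left 7687 of the 11998 genes to test, and 202 passed over all populations in place of 802. By this setting 156 moved alike in place of 443 (153 of them shared), and 34 passed in each population in place of 103. It leaves out every gene under 3 CPM in any group, such as those near 0 on day 14. Without a fold threshold the counts were 3215, 1371 and 215. Testing against a 1.5-fold change gave 475 genes over all populations and 55 in each population. The interaction passed 1762 genes, and 2830 with DESeq2, 1127 without CX3CR1+ macrophages, 1173 without F4/80- cells and 465 without neutrophils; the cause was not tested. Leaving out 1 library gave 730 to 855 genes over all populations, 437 to 506 moving alike, 59 to 122 in each population (63 and 59 without replicate 1 or 2 of day 14 F4/80- cells) and 1029 to 3677 for the interaction (3677 and 2834 without replicate 1 or 2 of day 1 CD9+ macrophages, 1155 and 1029 without replicate 1 or 2 of day 14 neutrophils). Populations of a day shared mice, but whether a replicate number marks such a shared pool is not given in the labels. Deviations of same-numbered samples correlated at 0.0206 to 0.177 on day 1, 0.0477 to 0.159 on day 14 and -0.018 to 0.131 across days, over 0.1 for 1 of 6, 2 of 6 and 1 of 4 pairs, so the numbers were not used as pairs, and a replicate block gave 796, 443, 110 and 1917 genes. With the pool as a random block limma passed 994 genes (56.9% lower, beside 67.1%) and 419 of the 443, and with pool means, 2 against 2, 896 genes and all 443. DESeq2 gave 439 alike genes, 437 of them shared. Of the named genes, 14 no longer passed without the neutrophil libraries (Calr, Cdkn1a, Ctsz, Gpr137c, Icam1, Ly6g, Manf, Pdia4, Pfkp, Plin2, Rps12l1, Sod2, Tnip1 and Tpi1). Icam1, Mertk, Qpct and Zbtb16 no longer did without CX3CR1+ macrophages, Gpr137c, Hist1h4d, Icam1, Qpct and Rn7sk without F4/80- cells, and Icam1, Ly6g, Ptgs2 and Qpct without CD9+ macrophages. Testing against a 1.5-fold change ended the pass of P4ha1, P4ha2, Traf1, Gpr137c, Icam1, Ly6g, Pfkp, Ptgs2, Qpct, Rps12l1, Sod2, Tnip1 and Zbtb16. Leaving out 1 library, most often of neutrophils or CD9+ macrophages, ended the pass of Icam1, Ptgs2, Tnip1, Sod2, Ctsz, Pdia4, Pfkp, Hist1h4d, Ly6g, Gpr137c and Qpct. No named gene that passed changed direction under these settings. With 2 libraries a group, changes of genes with few counts are poorly resolved.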
